A study of Mus musculus with 22 samples.

Results

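The comparison described here set the effect of X-rays on microRNAs (miRNAs) in feces against the effect in the small intestine of mice. Its value for each miRNA is a difference of differences on the log2 scale, the change from 0 Gy to 10 Gy in feces minus the change from 0 Gy to 10 Gy in intestine. A value above 0 means that the level moved up more, or down less, in feces than in intestine. The 16 arrays used, of 22 in the series, were 4 of feces at 0 Gy, 4 of feces at 10 Gy, 4 of small intestine at 0 Gy and 4 of small intestine at 10 Gy. All samples came from male mice aged 8 weeks, irradiated at 1.0 Gy per minute or given 0 Gy. The strain, the interval between irradiation and collection and the animal behind each sample are not given in the sources used here, so the p-values reflect how much these samples varied, and some of that variation may be technical. RNA from each sample was labelled with Cy3 and hybridised to an Agilent mouse miRNA array. Of 1881 mouse miRNAs on the array, 219 were detected, that is well above background, on at least 4 arrays of feces and at least 4 of intestine, and these were tested. A further 272 met that condition in feces alone and 116 in intestine alone.

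miRNAs are short RNAs that guide Argonaute proteins to messenger RNAs through the seed, the stretch of bases 2 to 8, and lower the output of those messages. In the gut they are made by epithelium, muscle, immune and vascular cells, and part of them reaches the lumen with shed cells and vesicles and can be recovered from feces. Feces also hold RNA from diet and microbes, which an array of mouse probes is not designed to measure. Ionising radiation activates p53, which induces transcription of the miR-34 genes, and it stops division and causes loss of cells in the intestinal crypts.

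Mature sequences are given for the miRNAs on which the comparison turned. They are from RefSeq on GRCm38.p6, which matched 191 of the 219 tested miRNAs, and capitals mark the seed. The first set holds miRNAs whose dose effect, not level, was higher in feces than in intestine. Among them miR-466q, miR-466i-3p and miR-467f are built on repeats of CA, and miR-574-3p, whose own difference did not pass, carries a shorter run of the same letters.
miR-494-3p: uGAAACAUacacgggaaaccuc
miR-690: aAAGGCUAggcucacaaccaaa
miR-466q: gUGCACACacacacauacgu
miR-466i-3p: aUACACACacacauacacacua
miR-467f: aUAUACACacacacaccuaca
miR-574-3p: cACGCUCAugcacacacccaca
miR-7002-5p: uUGGCUUCggggaguacgugg
miR-6931-5p: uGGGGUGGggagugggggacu
The second set holds miRNAs whose dose effect, not level, was lower in feces than in intestine, most of them rich in G.
miR-3091-5p: cAUGGGUCugguugggcccgc
miR-877-5p: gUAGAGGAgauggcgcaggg
miR-721: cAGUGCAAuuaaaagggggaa
miR-483-5p: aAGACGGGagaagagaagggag
miR-7118-5p: uGGGGAAGgcgggagagggaac
miR-3102-5p: gUGAGUGGccaggguggggcug
miR-7088-5p: gCAAGUGGuggugaggaggggaaac
The last set holds a p53 target, whose change had the same direction in both sample types, and a representative each of the growth-associated miR-17 seed group and of the epithelial miR-200 seed group.
miR-34a-5p: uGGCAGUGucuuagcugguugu
miR-17-5p: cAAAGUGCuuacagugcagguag
miR-200c-3p: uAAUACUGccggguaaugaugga

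By position on GRCm38.p6, miR-494-3p lies at chr12:109715367-109715388 on the plus strand, in an interval of imprinted miRNA genes, and within no annotated protein-coding or long non-coding gene. miR-483-5p (chr7:142654968-142654989, minus strand) lies within the span of Igf2, which encodes an insulin-like growth factor. miR-877-5p (chr17:35960795-35960814, minus strand) lies within Abcf1, miR-3091-5p (chr2:180257547-180257567, plus strand) within the ribosomal protein gene Rps21, and miR-721 (chr5:136375777-136375797, minus strand) within Cux1. Of the CA-repeat miRNAs, miR-466q (chr3:28419988-28420007) lies within Tnik, miR-466i-3p (chr13:17747552-17747573) within Cdk13 and miR-467f (chr11:69635419-69635439) within Fxr2. miR-34a-5p (chr4:150068473-150068494) lies in no such gene. These are gene spans, so exon and intron were not told apart.

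The dose effect differed between feces and intestine for 49 of 219 miRNAs (22.4%, limma adjusted p below 0.05), 21 higher in feces (9.59%) and 28 lower (12.8%). At an unadjusted p below 0.05 the number was 83. The median difference over all 219 was 0.28, and 127 (58%) lay above 0. Of the 49, 39 were detected on at least 1 array of each group. The other 10, all lower, were undetected in unirradiated intestine, so their direction there was built into their selection. Of the 39, 23 were detected on all 16 arrays. Some of the rest met the detection condition only with the dose where they were high, so selection favoured their direction too. In intestine miR-7040-5p and miR-139-3p were each detected on 1 of 4 arrays at 0 Gy and 4 of 4 at 10 Gy. In 35 of the 49 the effects lay on opposite sides of 0, with feces up and intestine down in 14 and the reverse in 21. They lay on the same side in 14 of the 49 and in 99 of all 219. A test of the difference favours miRNAs with opposite effects, so these counts are a description. Of the 28 lower values, 23 passed as a rise in intestine without passing in feces. The 28 include the 10 undetected in unirradiated intestine. Fecal replicates also varied more, with a median SD of 0.53 against 0.29, so not passing in feces does not show that feces did not change. Of the 21 higher values, 8 rose in feces only, 6 fell in intestine only, 6 passed in neither sample type alone, and 1, miR-494-3p, rose in feces and fell in intestine. Across the 219 miRNAs the effects in the 2 sample types were almost unrelated, with Pearson's r = -0.11 and Spearman's rho = -0.17, where the points share arrays and scaling factors and are not independent.

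**Figure D1:**
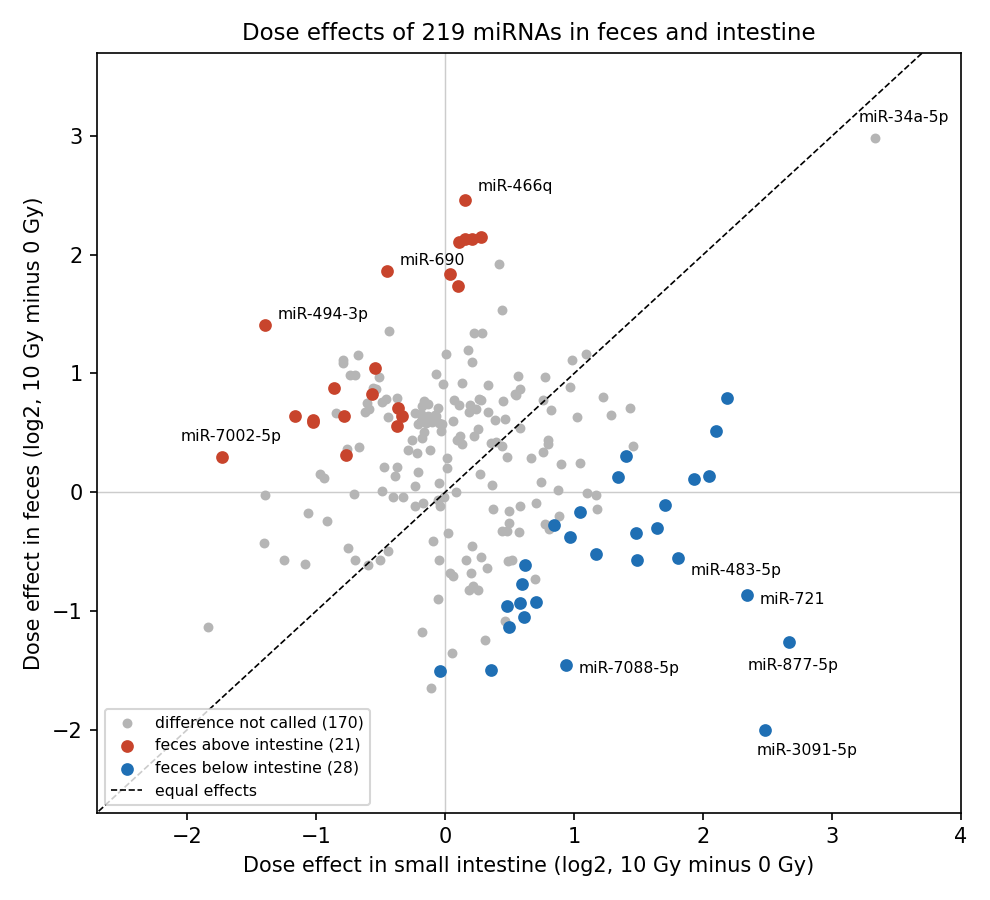
Dose effect (log2, 10 Gy minus 0 Gy) in small intestine on the x axis and in feces on the y axis for the 219 miRNAs tested in both, with the dashed line marking equal effects. The 21 red points, called higher in feces than in intestine, lie above the line and the 28 blue points, called lower, lie below it, mostly at the right, while miR-34a-5p lies near the line at the upper right.

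Fitted separately, the dose effects were unequal in number. Among the 219 miRNAs, 16 passed in feces (7.31%), 13 higher (5.94%) and 3 lower (1.37%), and 84 passed in intestine (38.4%), 55 higher (25.1%) and 29 lower (13.2%). The arrays of the doses did not overlap for 51 miRNAs in feces (23.3%) and 77 in intestine (35.2%). Over all miRNAs tested in a sample type, 37 of 491 passed in feces (7.54%), 17 higher (3.46%) and 20 lower (4.07%), and 140 of 335 passed in intestine (41.8%), 87 higher (26%) and 53 lower (15.8%). These splits depended on the scaling. In intestine higher and lower calls numbered 101 and 33 with the percentile over miRNAs detected on all 16 arrays, 57 and 64 with quantile normalization, 186 and 13 without scaling, 25 and 66 with normexp, and 21 and 86 with the percentile taken over every miRNA on the array. In feces they were 1 and 26 without scaling. The replicate spread was also unequal. The median SD within a group was 0.53 in feces and 0.29 in intestine on the log2 scale, and the SD was larger in feces for 166 of 219 miRNAs. Leaving out single feces arrays moved the number of feces calls between 2 and 149, with each of the 8 arrays changing it by more than 1.5 times. Without 10 Gy replicate 2 or replicate 4, 0 miRNAs passed as higher in feces. The number of called differences stayed between 35 and 67.

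miR-494-3p, from an imprinted cluster of miRNA genes, had the highest difference. Levels are given as log2 signal relative to the 75th percentile of the array. In feces its levels were 0.16, 0.55, -0.80 and 0.43 at 0 Gy and 1.37, 1.44, 1.17 and 2.00 at 10 Gy. In intestine they were 6.11, 4.28, 4.89 and 3.52 at 0 Gy and 2.61, 3.28, 3.74 and 3.56 at 10 Gy. All fecal levels at 10 Gy lay above all those at 0 Gy, while in intestine the groups overlapped through 0 Gy replicate 4. miR-494-3p thus rose 2.66-fold in feces (1.41 ± 0.34, SE, adjusted p = 0.0453) and fell 2.64-fold in intestine (-1.40 ± 0.44, adjusted p = 0.0227). The difference was 2.81 ± 0.64 (limma adjusted p = 0.00813, 95% interval 1.47 to 4.15), and its 2 probes gave 2.76 and 2.93. The difference also passed with another background correction, normexp, at 2.59, and in all 16 fits that left out 1 array. Its call was lost without scaling (1.70) and in slide row 2 alone. The fecal rise on its own was less firm. Without feces 10 Gy replicate 2 or replicate 4, 0 miRNAs passed as higher in feces. Of the tested miRNAs near it on chromosome 12, miR-134-5p was called higher too, at 1.08 ± 0.37 (adjusted p = 0.0396). miR-3072-5p (-0.80) and miR-370-3p (-0.96) lay below 0 and were not called, so the neighbours did not share a direction.

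The rodent miRNAs named miR-466, miR-467 or miR-669, a group of repeat-rich sequences, supplied 7 of the 21 higher values. Of 58 members on the array 9 were tested, and 7 were called higher and 0 lower, against 9.59% and 12.8% of all 219. The median difference was 1.87 against 0.28 over all 219. Without scaling that median was 0.69. The family was picked with the earlier results of these data known. In feces the levels of miR-466q were -6.89, -6.23, -7.24 and -4.85 at 0 Gy and -3.91, -4.07, -4.01 and -3.37 at 10 Gy. In intestine they were -2.12, -2.80, -2.63 and -2.73 at 0 Gy and -2.53, -2.18, -2.61 and -2.34 at 10 Gy. The fecal groups did not overlap and those of intestine did. miR-466q rose 5.52-fold in feces (2.46 ± 0.49, adjusted p = 0.0282), had a change of 0.15 ± 0.20 in intestine (adjusted p = 0.56), and differed by 2.31 ± 0.55 (adjusted p = 0.00905).

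The other family members called were miR-669p-3p (difference 2.00 ± 0.49), miR-466f-3p (1.98 ± 0.50), miR-466i-3p (1.92 ± 0.51), miR-669c-3p (1.87 ± 0.47), miR-467f (1.80 ± 0.49) and miR-466h-3p (1.64 ± 0.45), with adjusted p between 0.0105 and 0.0149. Each of these rose in feces without overlap between the doses, and their intestinal changes, from 0.04 to 0.28, did not pass. The fecal rises of the 7 called members passed on their own only with certain arrays. Without feces 10 Gy replicate 2 or replicate 4, 0 miRNAs passed as higher in feces. The differences of the 7 passed in all 16 fits that left out 1 array. The remaining tested members stood apart from these. miR-669n (0.07 ± 0.63, adjusted p = 0.943) had changes of 1.17 in feces and 1.09 in intestine, of which the intestinal one passed, and miR-466i-5p differed by 0.19 (adjusted p = 0.807). Some of the fecal rises began close to the detection limit, with miR-669c-3p detected on 1 of 4 unirradiated fecal arrays and miR-466q on 2 of 4. These 2 met the detection condition in feces only with the irradiated arrays, where they were high, so selection favoured their direction. miR-467f and miR-466h-3p were detected on all 16 arrays. The members resemble each other in sequence, so their probes may share signal, which was not tested. With normexp correction, whose offset of 50 compresses dim signals, the 7 lost their calls (adjusted p from 0.0595 to 0.203), with differences of 0.47 to 0.96.

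The letters ACACAC were searched on the strand of the mature miRNA. They occurred in 4 of the 191 matched sequences (2.09%), which were miR-466q, miR-466i-3p, miR-467f and miR-574-3p. Of these 3 were called higher and 0 lower, where 9.59% of all 219 miRNAs were called higher. The 3 are family members already described above, so the count adds no support of its own. miR-574-3p had fecal levels of -6.10, -5.06, -6.44 and -4.14 at 0 Gy and -3.22, -3.59, -3.76 and -3.46 at 10 Gy, so the fecal doses did not overlap. Its fecal rise passed (1.93, adjusted p = 0.0459) and its difference of 1.51 ± 0.57 did not (adjusted p = 0.0621). It was detected on 1 of 4 unirradiated arrays in each sample type.

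miR-690, whose sequence lies within the span of Fgf12, rose in feces with little change in intestine. Its fecal levels were -4.52, -5.55, -5.97 and -4.23 at 0 Gy and -3.65, -3.59, -3.39 and -2.19 at 10 Gy, which do not overlap. Its intestinal levels were 1.39, 0.93, 1.61 and 1.05 at 0 Gy and 0.71, 1.08, 0.76 and 0.63 at 10 Gy, which do. The difference was 2.31 ± 0.54 (limma adjusted p = 0.00813), made of 1.86 in feces (adjusted p = 0.048) and -0.45 in intestine (adjusted p = 0.08), and with normexp it was 1.03 (adjusted p = 0.0525).

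Other higher values came from falls in intestine. miR-7002-5p, from a number range that holds mostly mirtrons (miRNAs cut from spliced introns), had intestinal levels of -2.73, -2.19, -1.94 and -2.58 at 0 Gy and -4.32, -4.72, -2.88 and -4.45 at 10 Gy, which do not overlap. Its fecal levels, -1.84, -2.16, -1.68 and -2.66 at 0 Gy and -2.43, -1.84, -1.26 and -1.65 at 10 Gy, do overlap. It fell 3.32-fold in intestine (adjusted p = 0.00215) and differed by 2.02 ± 0.53 (adjusted p = 0.013). miR-6931-5p was the more precise case, with fecal levels of -0.48, -0.80, 0.00 and 0.11 at 0 Gy and 0.42, 0.29, 0.39 and 0.30 at 10 Gy. In intestine they were -1.09, -1.21, -0.37 and -0.85 at 0 Gy and -2.01, -1.77, -2.19 and -2.20 at 10 Gy. The doses of miR-6931-5p separated in both sample types in opposite directions, and it differed by 1.81 ± 0.36 (adjusted p = 0.00415), although its fecal change of 0.64 did not pass on its own (adjusted p = 0.0938). The remaining miRNA among the 12 highest, miR-7042-5p, differed by 1.74 ± 0.50 (adjusted p = 0.0202) with neither change passing alone.

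Of the miRNAs of intestinal epithelium 1 of 10 tested passed (higher), where 9.59% of all 219 did. All 10, of 15 listed, had a difference above 0, as did 58% of all 219. They ran from 0.69 to 1.91 with a median of 1.33, which was 0.22 without scaling. None of the 9 epithelial markers summed below passed. The miRNA that passed was miR-378a-3p, a list member outside those markers that is linked to mitochondrial metabolism. Its intestinal levels were 0.17, 0.43, 0.08 and 0.30 at 0 Gy and -0.64, -0.83, -1.22 and -0.42 at 10 Gy, without overlap. Its fecal levels, -3.34, -4.26, -4.01 and -3.47 at 0 Gy and -3.73, -2.86, -3.39 and -2.68 at 10 Gy, overlapped. It fell 2.03-fold in intestine (adjusted p = 0.00187), and the difference was 1.63 ± 0.40 (limma adjusted p = 0.0105). miR-378d, of the same name group, was also called higher (1.42 ± 0.44, adjusted p = 0.0265).

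Among the epithelial miRNAs that did not pass, miR-200c-3p, a repressor of the Zeb transcription factors, had a wide spread in feces. There its levels were -1.99, -3.95, -5.01 and -2.31 at 0 Gy and -2.33, -1.65, -3.03 and -1.78 at 10 Gy, which overlap. In intestine they were 2.87, 3.13, 2.78 and 2.92 at 0 Gy and 2.49, 1.97, 1.74 and 2.33 at 10 Gy, without overlap. The difference of miR-200c-3p was 1.91 ± 0.72 (adjusted p = 0.0621). miR-200b-3p (1.88 ± 0.81), miR-429-3p (1.44 ± 0.75) and miR-192-5p (1.36 ± 0.69), which is abundant in enterocytes, had like values and none passed. In intestine 6 of the 10 fell (13.2% of all 219), while in feces 0 of 10 passed and 9 had a change above 0. The median fecal change was 0.71 for the 10 and also above 0, at 0.38, over all 219. The summed level of the 9 epithelial markers ran from -0.40 to 2.40 in feces at 0 Gy, from 1.06 to 2.56 in feces at 10 Gy, from 6.65 to 7.15 in intestine at 0 Gy and from 5.66 to 6.55 in intestine at 10 Gy. In such bulk samples fewer epithelial cells and less of these miRNAs per cell cannot be told apart.

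The miR-17/92 and miR-106b/25 clusters, highly expressed in dividing cells, had the same form. All 6 tested members had differences from 1.29 to 1.83 with a median of 1.71, and 0 of 6 passed (adjusted p from 0.104 to 0.251). In intestine 5 of the 6 fell, where 13.2% of the 219 did, and in feces 0 passed. The fecal levels of miR-17-5p were -2.29, -2.97, -5.82 and -5.33 at 0 Gy and -3.79, -3.32, -1.80 and -2.89 at 10 Gy, so that unirradiated feces held both the lowest and nearly the highest values. In slide row 1 alone, which held replicates 1 and 2, the cluster's median was -0.15, and in row 2 alone, which held replicates 3 and 4, it was 3.35. The direction of the difference was thus opposite in the rows. The 5 tested miRNAs that share the seed AAAGUGC had a median of 1.69, and the 3 of the miR-200b seed AAUACUG a median of 1.88.

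The lowest fitted values belonged to miRNAs that were detected in intestine at 10 Gy but not at 0 Gy. Of the 28 lower calls, 10 were undetected on all 4 intestinal arrays at 0 Gy, so their fitted changes start from the floor set for dim values and have no order among themselves. These 10 passed the detection condition in intestine through the 10 Gy arrays, so a difference was built into their selection. Their fitted values are a description, and their calls are no support for a difference. For these the fold is bounded from below, taken probe by probe as the least rise that the detected probes allow. In feces miR-3091-5p was detected on 4 of 4 unirradiated and 0 of 4 irradiated arrays, and in intestine on 0 of 4 unirradiated and 4 of 4 irradiated arrays. It was at least 1.92-fold lower in irradiated feces and at least 1.58-fold higher in irradiated intestine. In each sample type it thus passed the detection condition only through the dose where it was high. The fitted difference of miR-3091-5p was -4.49 ± 0.49, and its single probes gave -2.21 and -2.01. With normexp the difference was -0.29 and the call was lost (limma adjusted p = 0.458).

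miR-877-5p, a mirtron, had fecal levels of -0.12, -0.76, 0.80 and -0.78 at 0 Gy and -1.62, -1.36, -1.60 and -1.36 at 10 Gy, without overlap. In intestine its levels were -5.41, -5.79, -5.37 and -5.62 at 0 Gy, all undetected, and -2.66, -3.03, -2.55 and -3.28 at 10 Gy, at least 1.34-fold higher. The fitted difference was -3.93 ± 0.44, the probes gave -2.21 to -1.46, and the fecal change of -1.27 did not pass on its own (adjusted p = 0.0686). With normexp the call was lost at -0.75 (adjusted p = 0.12). miR-721, also undetected in unirradiated intestine, was at least 2.18-fold higher there at 10 Gy, with a fitted difference of -3.21 ± 0.43 and probes no lower than -2.19. With normexp it was -0.92 and the call was lost (adjusted p = 0.071).

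miR-483-5p, encoded within Igf2, and miR-7118-5p were detected on every array, so their values rest on no floor. In intestine miR-483-5p had levels of -2.79, -3.75, -3.37 and -3.58 at 0 Gy and -1.46, -1.42, -1.33 and -2.06 at 10 Gy. In feces the levels were 5.30, 5.41, 5.37 and 5.57 at 0 Gy and 5.44, 5.02, 4.73 and 4.24 at 10 Gy. The intestinal doses separated and the fecal ones overlapped through 10 Gy replicate 1. miR-483-5p rose 3.49-fold in intestine (adjusted p = 0.000104) and differed by -2.36 ± 0.40 (adjusted p = 0.000931), the lowest value among called miRNAs detected on all 16 arrays.

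miR-7118-5p had intestinal levels of -0.22, -0.97, -0.45 and -0.76 at 0 Gy and 1.36, 1.03, 1.13 and 0.63 at 10 Gy, which do not overlap. Its fecal levels were 6.28, 6.54, 5.94 and 6.50 at 0 Gy and 6.65, 6.14, 5.76 and 5.51 at 10 Gy, which overlap. It differed by -1.94 ± 0.40 (adjusted p = 0.00477). miR-3102-5p, likewise detected on all 16 arrays, rose 3.26-fold in intestine, had a fecal change of -0.11 and differed by -1.81 ± 0.42 (adjusted p = 0.00813). Both kept their calls with normexp, at -1.69 and -1.17, while miR-483-5p did not (-0.85, adjusted p = 0.0703).

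**Figure D2:**
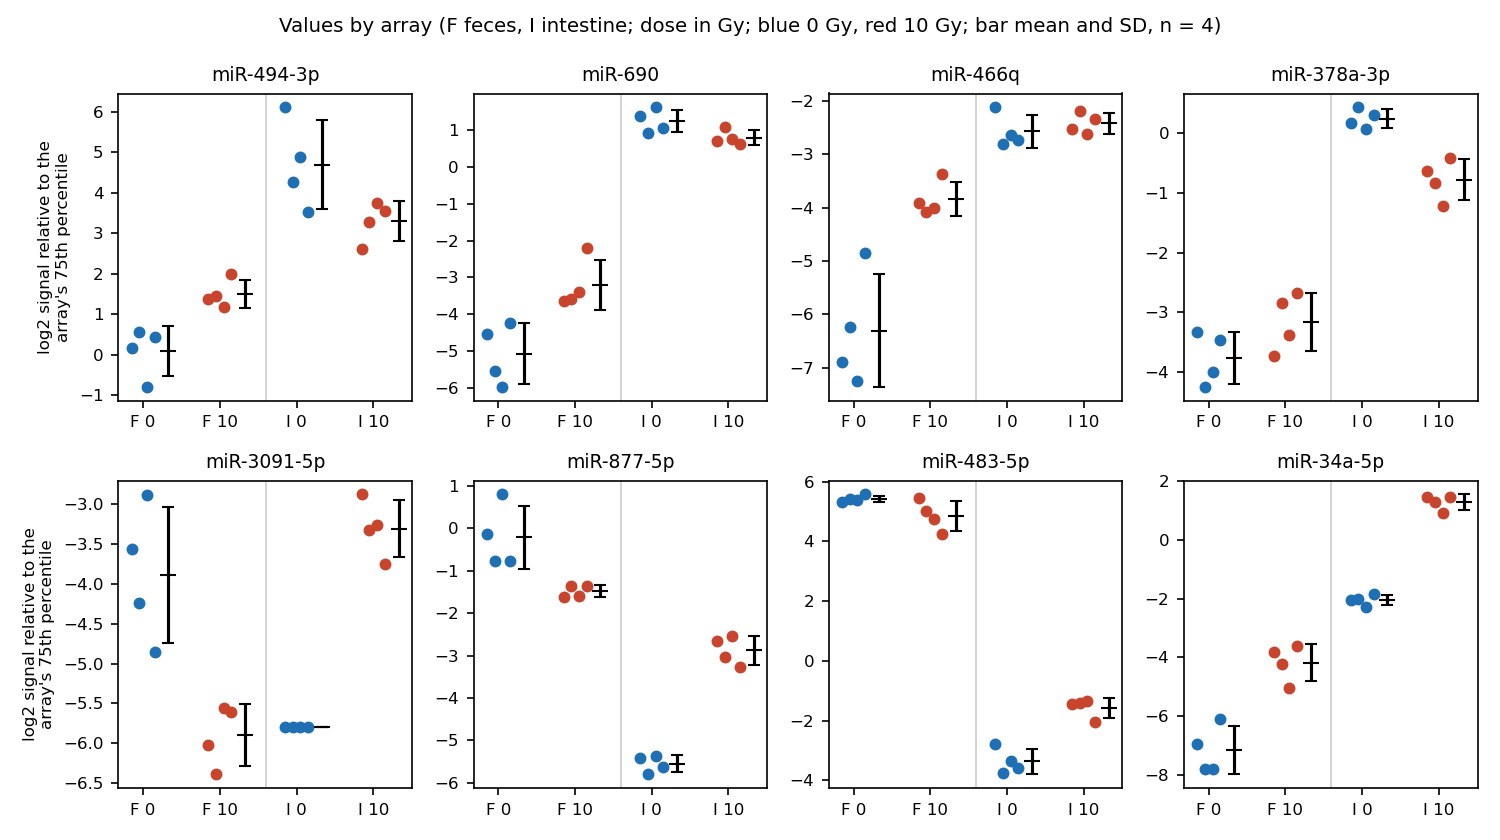
Log2 signal relative to the array's 75th percentile for 8 miRNAs, 1 point per array, in feces (F) and intestine (I) at 0 Gy (blue) and 10 Gy (red), with the mean and SD of 4 arrays as bars. miR-494-3p, miR-3091-5p and miR-877-5p move in opposite directions in the 2 sample types, miR-466q moves in feces, miR-378a-3p and miR-483-5p in intestine, and miR-34a-5p moves up in both.

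miR-7088-5p was, with miR-3091-5p, the other miRNA that fell in feces and rose in intestine. Its fecal levels were 4.85, 4.16, 5.39 and 3.93 at 0 Gy and 3.42, 3.38, 3.16 and 2.56 at 10 Gy, without overlap. Its intestinal levels of -3.75, -4.40, -4.30 and -5.07 at 0 Gy and -4.11, -2.67, -3.23 and -3.75 at 10 Gy overlapped. It was detected on 2 of 4 unirradiated arrays there, so it met the detection condition in intestine only with the irradiated arrays. It fell 2.74-fold in feces (adjusted p = 0.048) and rose 1.92-fold in intestine (adjusted p = 0.0337), a difference of -2.39 ± 0.54 (adjusted p = 0.00813). The call for feces down without a change in intestine was miR-7216-5p, named after its values were seen, at -1.47 ± 0.48 (adjusted p = 0.0346).

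Several other low values rested on dim signals or on few arrays. miR-8109 (-1.91 ± 0.50) and miR-3154 (-1.81 ± 0.38) were undetected in unirradiated intestine, and their probes gave only -0.43 to -0.35 and -0.66 to -0.51. miR-139-3p (-2.06 ± 0.67, adjusted p = 0.034) and miR-3075-5p (-1.86 ± 0.61, adjusted p = 0.0346) lost their calls in 9 of 16 fits that left out 1 array. For miR-139-3p the highest adjusted p among these was 0.0754 and the arrays concerned were feces 0 Gy replicates 1 and 3, feces 10 Gy replicates 1 and 2, intestine 0 Gy replicates 2, 3 and 4, and intestine 10 Gy replicates 2 and 3. For miR-3075-5p it was 0.0757 and the arrays were feces 0 Gy replicates 1 and 3, feces 10 Gy replicates 1, 2 and 4, intestine 0 Gy replicates 2 and 4, and intestine 10 Gy replicates 2 and 3. With normexp all 4 had values just above 0. miR-7040-5p (-1.82 ± 0.46, adjusted p = 0.0107) was detected on 1 of 4 unirradiated intestinal arrays and was -0.31 with normexp.

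miR-34a-5p, the p53 target, was higher at 10 Gy in both sample types. In feces its levels were -6.97, -7.79, -7.79 and -6.10 at 0 Gy and -3.83, -4.22, -5.05 and -3.62 at 10 Gy. In intestine they were -2.05, -2.02, -2.27 and -1.84 at 0 Gy and 1.49, 1.29, 0.92 and 1.47 at 10 Gy. Neither sample type had any overlap between the doses. The rise was 2.98 ± 0.46 in feces and 3.33 ± 0.19 in intestine, and the difference of -0.35 ± 0.52 did not pass (adjusted p = 0.616, 95% interval -1.44 to 0.74). That interval does not show equal responses, since miR-34a-5p was detected on 1 of 4 unirradiated fecal arrays and its fecal rise starts at the floor. With normexp its difference passed at -1.94 (adjusted p = 0.000186), as it did at -2.56 when probes were averaged on the log2 scale. miR-34b-5p and miR-34c-5p did not meet the detection condition in both sample types and were not tested.

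miR-8110 was the other miRNA that rose in both. Its fecal levels were 2.96, 3.19, 3.53 and 4.03 at 0 Gy and 4.35, 4.41, 4.81 and 4.61 at 10 Gy, and its intestinal levels 1.25, 1.11, 1.20 and 0.92 against 2.20, 2.01, 2.46 and 1.73. The doses separated in both, the rises were 2.17-fold and 1.97-fold, and the difference was 0.14 ± 0.36 (adjusted p = 0.786, 95% interval -0.62 to 0.90).

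The remaining lists gave few calls. Of 9 tested p53-responsive miRNAs 0 differed, and their median of 1.04 came from members shared with the epithelium list, such as miR-200c-3p and miR-192-5p, and from miR-107-3p (1.25) and miR-16-5p (1.08). Of 13 miRNAs of the radiation and DNA damage response 1 was called higher, miR-494-3p, and the median of 0.29 was close to that of all miRNAs. miR-21a-5p (0.27), which inhibits tumour suppressor messages, and the hypoxia miRNA miR-210-3p (-0.35) of that list did not pass. The let-7 family, which represses growth regulators, had 0 calls of 7 and a narrow range from 0.63 to 0.90, and 0 of 8 members of the families miR-29 and miR-30 passed, with values from 0.47 upwards and a median of 0.74. Of 38 tested miRNAs from a number range that holds mostly mirtrons, 5 were called higher and 5 lower, with a median of -0.20. These counts are close to the shares over all 219, 9.59% higher and 12.8% lower.

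Cell types other than epithelium could hardly be compared, since their miRNAs were mostly undetected in feces. Of the muscle and mesenchyme list miR-133a-3p (0.46) and miR-133b-3p (0.50) were tested and neither passed. Of the leukocyte list miR-181a-5p (-1.54 ± 0.56, adjusted p = 0.0555), miR-181b-5p (-0.72) and miR-29b-3p (0.57) were tested and none passed. Of 5 defining leukocyte markers 2 were detected on at least 1 unirradiated fecal array and 0 on any irradiated one, whereas 5 were detected on at least 1 intestinal array at each dose. miR-486a-5p of erythrocytes differed by -0.37 and did not pass. No miRNA of liver, endothelium or neurons was tested in both sample types.

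**Figure D3:**
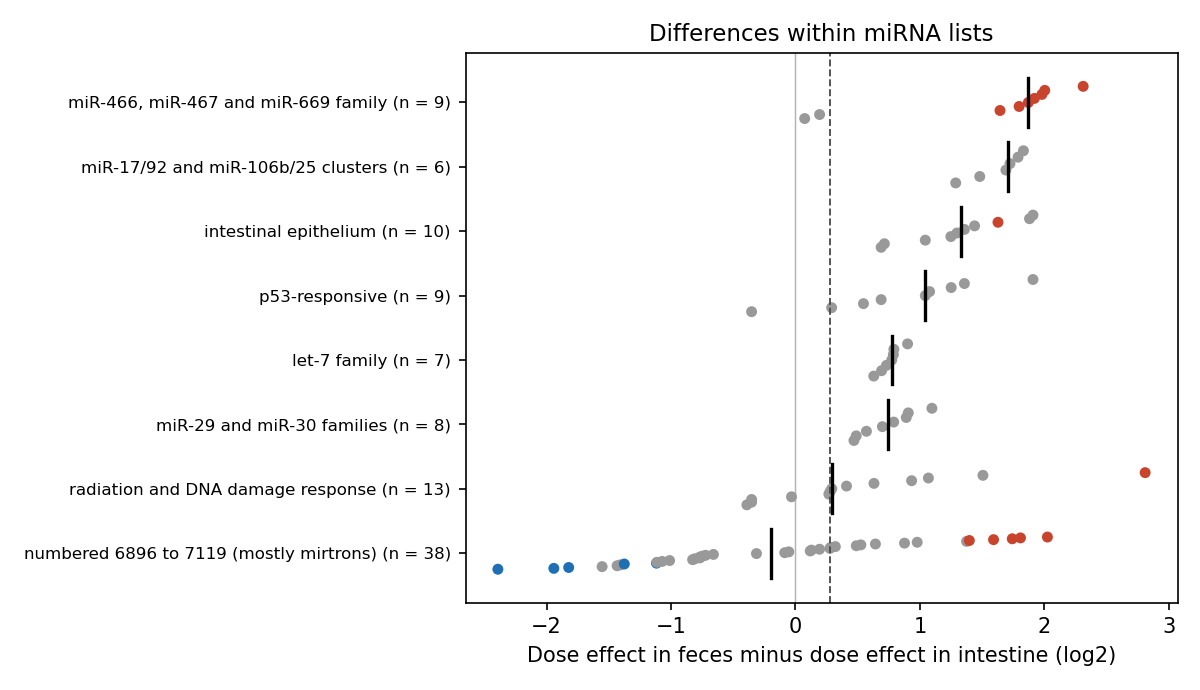
Difference (log2, dose effect in feces minus dose effect in intestine) for the tested members of 8 miRNA lists, 1 point per miRNA, red where called higher and blue where called lower, with a black bar at each list's median and a dashed line at the median of all 219 miRNAs, 0.28. The family of miR-466, miR-467 and miR-669 holds 7 red points, whereas the epithelial, miR-17/92 and let-7 members lie above 0 with few calls.

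The difference followed the base composition of the mature miRNA. Across the 191 miRNAs with a sequence it correlated with GC content at r = -0.45 (Spearman's rho = -0.49), with opposite signs in the sample types, -0.34 for the change in feces and 0.33 for the change in intestine. Among miRNAs under 40% GC the median difference was 0.76 (n = 18), from 50% to under 60% it was 0.28 (n = 47), and at 70% or more it was -0.69 (n = 28). The miRNAs called higher had a median GC content of 54.5% and those called lower 68.2%, against 59.1% for all. GC content also went with the level itself, at r = 0.43 with the mean level in feces and r = -0.40 with that in intestine, and among the 122 miRNAs with a sequence that were detected on all 16 arrays the correlation with the difference was -0.41. These points share arrays, scaling and floor, and the part of base composition or level in the difference was not tested.

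**Figure D4:**
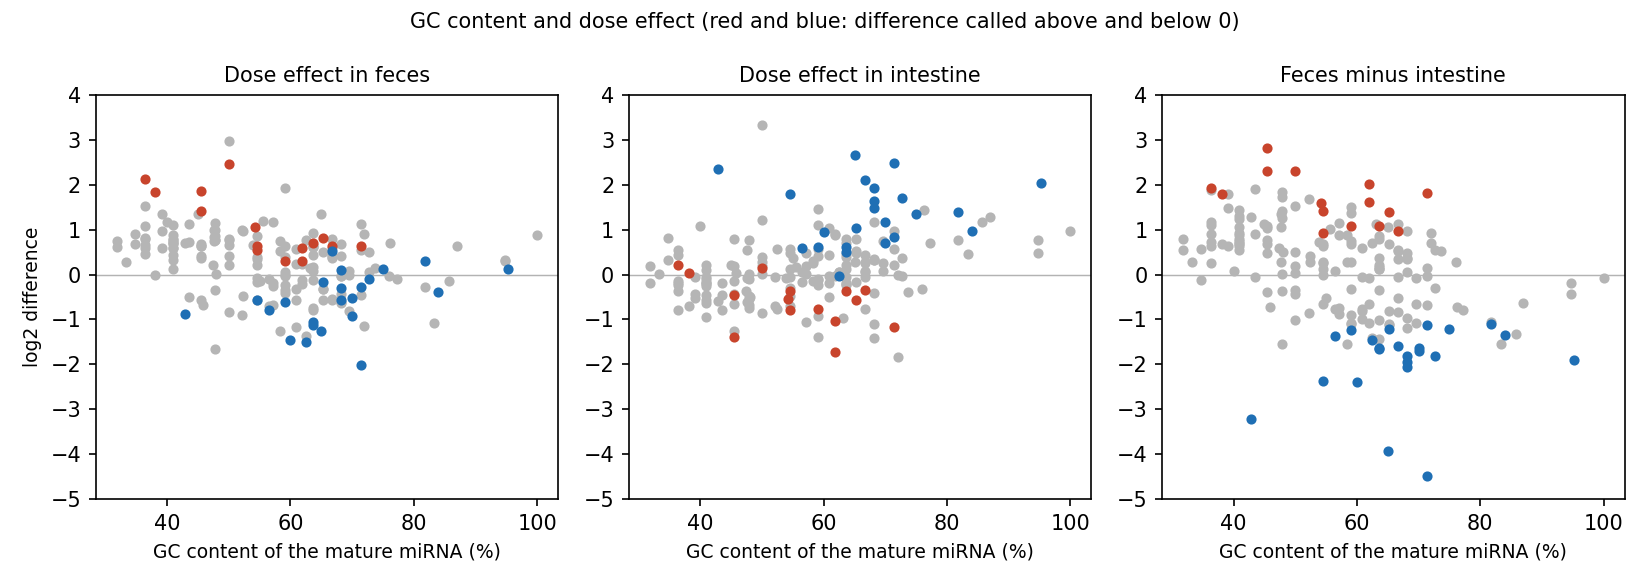
GC content of the mature miRNA in percent on the x axis and, on the y axis, the dose effect in feces, the dose effect in intestine and their difference (log2) for 191 miRNAs with a matched sequence, red where the difference was called above 0 and blue where called below 0. The points slope down in feces (r = -0.34), up in intestine (r = 0.33) and down in the difference (r = -0.45).

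The arrays themselves also differed with dose. The mean number of detected miRNAs went from 294.5 (SD 6.66, n = 4) to 365.75 (SD 27.4, n = 4) in intestine, and from 526.5 (SD 130, n = 4) to 469 (SD 23.3, n = 4) in feces. The 75th percentile used for scaling went from a mean of 495 to 689 in intestine and from 1416 to 759 in feces, so the balance of higher and lower values depended on the scaling. The split of 21 higher and 28 lower became 30 and 7 with the percentile over all miRNAs, 29 and 18 with quantile normalization, 0 and 56 without scaling, where every higher call was lost, and 14 and 44 when each difference was set against the median of 0.28. In rows of the slides analysed separately, the differences correlated at r = 0.64 across the 219 miRNAs, which share slides and scaling, and 175 of the 219 had the same sign in both rows. Row 1 alone gave 23 calls and row 2 alone 0 by limma, with 37 in row 2 at an unadjusted p below 0.05. Each sample type lay on a slide of its own, and 0 Gy arrays lay in columns 1 and 2 and 10 Gy arrays in columns 3 and 4 of both, so sample type and slide, and dose and column, cannot be told apart.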

How the data were processed

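The authors produced the deposited intensity values with Agilent Feature Extraction 11.5 (submitters' processing notes and, per the file headers, its miRNA protocol), as background-subtracted, spatially detrended signals of each spot on a linear scale, not normalized between arrays. The deposited intensity of spots that were not outlying was averaged per probe and summed per miRNA. A miRNA was detected where 50% or more of the spots of a probe were well above background. The deposited flags for well above background and outliers took part as other values. Each array was scaled by its 75th percentile, taken over the miRNAs that every array of that sample type detected (326 in feces, 268 in intestine), and values were raised to a floor (log2 of -7.79 and -5.79) and taken to log2. The authors' series table of intensity differed from the scanner files by less than 1% and served as an alternative.

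Differences were tested with limma 3.58.1 (lmFit, eBayes) in R 4.3.3 over 219 miRNAs, and each sample type was fitted alone for its own effect. Benjamini-Hochberg adjusted p-values below 0.05 were called. The fit was tested on simulated data. These had the same spread in both sample types and passed through no scaling or floor, so those steps and unequal spread were not covered. No sample was dropped or imputed, and serum was not used here. The array design names mm9, whose coordinates were not used. The sources do not say whether replicate numbers pair the samples, which were treated as unpaired.

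Named were the 12 highest and 12 lowest called differences, those called in opposite or the same directions in both sample types, up to 4 called members of each list, and the miR-34 group. The members and lists were chosen with earlier results of these data known. The number of arrays limits the precision.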

Additional observations from a re-analysis of the deposited data

Results flagged for a closer look

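The dose effect differed between feces and intestine for 49 miRNAs, tested as a contrast of the 4 groups in limma. Of these, 3 also passed in opposite directions in the separate fits. miR-494-3p differed by 2.81, with feces up and intestine down. Its fecal pass was lost without feces 10 Gy replicate 2 or replicate 4, where 0 miRNAs passed as higher in feces. miR-3091-5p (-4.49) and miR-7088-5p (-2.39) had feces down and intestine up. miR-3091-5p was undetected in irradiated feces and in unirradiated intestine. Its fitted value rests on the floor, and its opposite directions were built into its selection.

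Among the named miRNAs, an outlier rule marked 1 array against the other 3 of its group in 4 of 108 groups. Chance alone gives about 1 in 20, a rate that does not hold for groups with arrays tied at the floor. For miR-669c-3p, feces 0 Gy replicate 4 had a level of -6.21 while the others lay at the floor of -7.79. Intestine 0 Gy replicate 1 stood above the other 3 arrays for miR-466f-3p (-2.23, others -2.85 to -2.79), for miR-466h-3p (-1.52, others -2.17 to -2.07) and for miR-139-3p (-5.66, others at the floor of -5.79). With the other 3 tied at the floor, as for miR-669c-3p and miR-139-3p, the rule marks any array above it, however near.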

How the results depend on the processing

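The 49 called differences became 18 with normexp background (14 of them shared with the 49), 23 when only miRNAs detected on all 16 arrays were tested (fewer miRNAs), 23 in slide row 1 alone and 0 in slide row 2 alone, where limma left 37 at an unadjusted p below 0.05 with fewer arrays. They ranged from 35 to 67 when 1 array was left out, with at least 35 shared, and 30 of the 49 were called in all 16 such fits. The count of 37 in feces became 3 with normexp, 3 over miRNAs detected on all arrays, 24 with probes averaged on the log2 scale, 171 with array weights and 192 with all 6 groups in 1 fit, and ranged from 2 to 149 when 1 feces array was left out, the highest without 0 Gy replicate 4. The count of 140 in intestine became 91 with normexp. Other alternatives, such as the authors' series table (49), a floor 2 times as high (45) and slide row as a block (51), stayed within 1.5 times. The replicate block gave 58 calls (24 higher, 34 lower, 49 shared), and 38 with blocks within dose. Same-numbered samples of feces and intestine had correlations from -0.40 to 0.34, which do not settle whether they are pairs. The numbers were not used to pair them in the main fit. Values changed sign with normexp for miR-139-3p (0.079), miR-8109 (0.28), miR-3075-5p (0.090) and miR-3154 (0.12). So did those of differences that did not pass, miR-34a-5p with the percentile over all miRNAs (0.19; -0.56 to 0.0023 with 1 array left out) and miR-8110 without scaling (-0.97), against the median difference (-0.14), in slide row 2 alone (-0.11) and with 1 array left out (-0.018 to 0.34). The median of let-7 was -0.34 without scaling and that of the growth-associated miR-17/92 and miR-106b/25 clusters -0.15 in slide row 1 alone. Apart from fewer arrays or miRNAs, the cause was not tested. The comparison with all miRNAs and no detection filter could not be fitted, since most undetected miRNAs had no spread. The slide rows, the median and the total gene signal were chosen after seeing the data. Of the 219 tested miRNAs 14 were undetected in unirradiated intestine, and their values rest on signals near the floor.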
